A study of Mus musculus with 6 samples.

Results

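The 43 genes described here encode proteins of the neuronal cytoskeleton, of the growth cone and of the neuronal RNA-binding machinery, together with the transcriptional repressor REST. They are a list of names with no threshold on a measured value, but the names were chosen with earlier results of these data known. All 43 were found among the 54281 genes of the count table. The counts come from 6 libraries of GLUTag cells, a murine enteroendocrine line that expresses proglucagon and secretes GLP-1. All libraries belong to one untreated condition, a culture of 48 h in medium with glucose at 1 g/L and FBS at 10%. Plate 1, at passage 23, gave 3 of them and plate 2, at passage 27, the other 3, and the effects of plate and of passage cannot be told apart. The labels do not say that the libraries of a plate came from separate cultures of this single line, so p-values measure only the spread between these libraries, which may be technical.

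Neurons build stable axons from microtubules, made of α- and β-tubulin, and from neurofilaments, which are assembled from light, medium and heavy subunits. Microtubule-associated proteins and stathmins set how stable the microtubules are, and kinesins move cargo along them. Neuronal RNA-binding proteins of the ELAV, Nova, CELF, Rbfox and SRRM families control splicing and mRNA stability, and REST holds many of these genes silent in cells that are not neurons. Enteroendocrine cells share part of this equipment with neurons, since both are electrically excitable and release peptides from dense-core granules.

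Libraries were sequenced from the 3′ end of polyadenylated transcripts, which makes counts comparable between long and short transcripts, and levels of different genes are compared here as CPM, the count after scaling each library to a total of 1000000. Libraries held from 21399987 to 36488198 counts in total. Where no read was counted, counting error leaves room for 3 counts, which is 0.0822 to 0.14 CPM. The columns of plate 2 are numbered anew and could not be tied to the replicate numbers of the labels, so these libraries are called lowest, middle and highest after their totals, and the middle one stood apart from the others over many genes. Each of 10 enteroendocrine markers reached 1 CPM in all libraries, with a median of 304 CPM, from Gcg, the proglucagon gene, at 3416 CPM and the transcription factor gene Neurod1 at 617 CPM to Pcsk1 at 82.9 CPM and Scg2 at 81.2 CPM. Among epithelial markers, Epcam, Cdh1, Krt8, Krt18 and Krt19 never exceeded 10 counts, and only Krt20 (41.4 CPM) and Vil1 (2.13 CPM) reached 1 CPM in each, so the defining epithelial genes were at or near 0 in cells labelled as enteroendocrine. Among glial markers, Gfap had at most 1 count, Sox10 none and S100b at most 4, while Mbp had 71.8 CPM. Of 6 fibroblast markers, only Col1a2 (5.87 CPM) reached 1 CPM in every library. Mbp had a mean of 63.1 CPM on plate 1 and 80.5 CPM on plate 2. The sum of the glial list, of which Mbp is a member, was 59.4 to 67.9 CPM on plate 1 and 78.6 to 87.6 CPM on plate 2. The sum of the epithelial list was 46.4 to 52.3 CPM on plate 1 and 36.3 to 39.7 CPM on plate 2, and that of the fibroblast list 4.87 to 7.12 CPM and 5.44 to 7.06 CPM. The sum of the enteroendocrine list was 5028 to 5895 CPM on plate 1 and 6197 to 7672 CPM on plate 2, and that of 10 genes of the neuronal surface and of transmission 661 to 682 CPM and 810.5 to 878 CPM. These sums are in plain CPM. With total counts as the only scaling, the median log2 fold change of plate 2 over plate 1 was 0.30 over all 15669 tested genes. The part of these lists in the differences between plates was not tested.

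GLUTag cells transcribed nearly the whole set. A level of 1 CPM or more in all 6 libraries was measured for 41 of the 43 genes, against 51.8% of the 21805 protein-coding genes and 22.8% of all genes in the table, and the exceptions were Rbfox3, whose product is the neuronal nuclear antigen NeuN, and Sncg, which encodes γ-synuclein. The median level of the 43 genes was 82.2 CPM, beside 24.0 CPM for the 11292 protein-coding genes that also reached 1 CPM throughout, and 34 of the 43 lay above that value. A mean of at least 10 CPM was reached by 37 of them (38.3% of protein-coding genes) and at least 100 CPM by 17 (7.7%). Above 1000 CPM, the level of 0.482% of protein-coding genes, lay Nefm and Nefl. Since the genes were chosen with earlier results of these data known, these shares are a description and not a test. In sum the set took 8574 ± 383 CPM (SD, n = 6), or between 0.822% and 0.923% of a library. In bulk libraries, fewer cells with a transcript and less RNA per cell cannot be told apart.

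**Figure D1:**
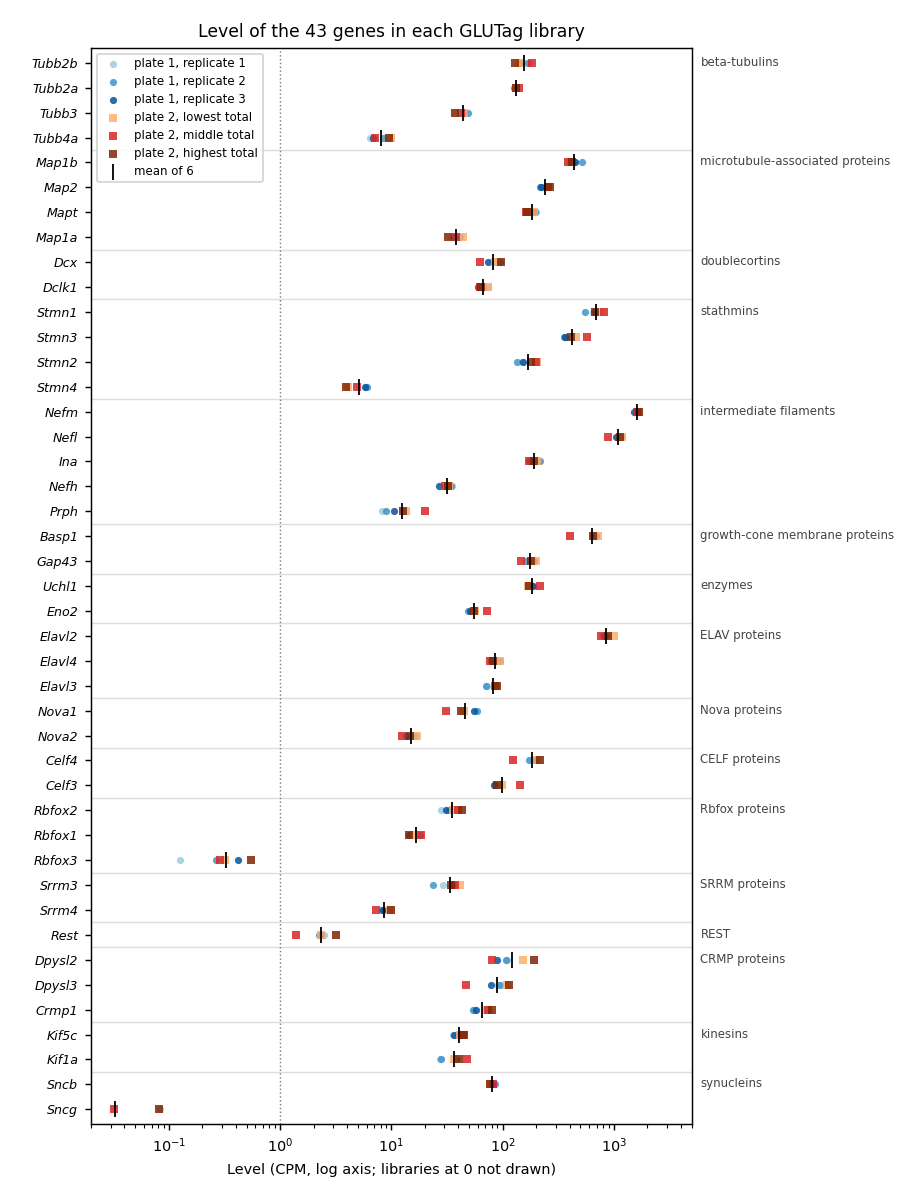
Level of each of the 43 genes in the 6 libraries, in CPM on a log axis, grouped by family. Circles are plate 1 and squares plate 2 libraries, the black tick is the mean of 6, and the dotted line marks 1 CPM. Libraries without a count are not drawn. Nefm and Nefl lie highest, and Rbfox3 and Sncg are the genes to the left of the dotted line.

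Nefm and Nefl, both neurofilament genes, were the most abundant of the set, and the other filament genes were far lower. Nefm (ENSMUSG00000022054, chromosome 14 of GRCm38, 68082590 to 68124846, minus strand), the medium subunit, had 1582, 1663 and 1526 CPM in plate 1 replicates 1, 2 and 3, and 1699, 1603 and 1670 CPM in the plate 2 libraries with the lowest, middle and highest total. These 6 values lay within a narrow band, with 1624 ± 64.9 CPM (SD, n = 6), and placed Nefm at rank 44 of all protein-coding genes. Nefl (ENSMUSG00000022055, chromosome 14, 68083863 to 68089095, plus strand), the light subunit on which neurofilaments are built, had 1085, 1149 and 1040 CPM on plate 1 and 1189, 894 and 1139 CPM on plate 2, with the lowest value in the library with the middle total. Its mean was 1083 ± 106 CPM (SD, n = 6). The annotated span of Nefm covers Nefl on the opposite strand, and the strand setting of the counting is not given in the sources used here, although the kit keeps the strand. Ina, encoding α-internexin, an early neuronal filament, had 191 ± 17.0 CPM (SD, n = 6). The heavy subunit gene Nefh had 31.9 ± 2.91 CPM and Prph, which encodes peripherin of peripheral neurons, had 12.4 ± 4.36 CPM (each SD, n = 6). Nefm thus made up 55.3% and Nefl 36.7% of the counts of the 5 filament genes, Nefh 1.08% and Prph 0.425%.

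Each step of that order was larger than its spread between libraries. Nefm exceeded Nefl by 0.59 ± 0.12 on the scale of log2 of the ratio of CPM + 1 within a library (SD, n = 6), Nefl exceeded Ina by 2.49 ± 0.09, Ina exceeded Nefh by 2.55 ± 0.09 and Nefh exceeded Prph by 1.35 ± 0.50, each in 6 of 6 libraries. The exact two-sided sign-flip permutation p was 0.03125 for each, the smallest that 6 libraries can give, or 0.0362 after Benjamini-Hochberg adjustment over the 44 pairs of genes compared within families. Of these 44 pairs, 38 had the same gene higher in all 6 libraries and passed an adjusted p of 0.05. The sizes of the differences with Sncg and Rbfox3 among them rest on the added 1 CPM, since those genes are near 0. The other 6 were Tubb2b and Tubb2a, Dcx and Dclk1, Elavl4 and Elavl3, Celf4 and Celf3, Dpysl3 and Crmp1, and Kif5c and Kif1a. The direction of the mean difference was the same on both plates in 43 of the 44, the exception being Elavl4 and Elavl3. Vim, the filament gene of many cultured cells, had 1026 CPM and was not separated from Nefl (log2 ratio of Nefl to Vim 0.08 ± 0.14, SD, n = 6, range -0.09 to 0.26, exact permutation p = 0.219).

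Among the β-tubulins, the best known neuronal isotype was not the main one. Tubb2b (chromosome 13 of GRCm38, 34126748 to 34130466, minus strand) had 162, 168 and 144 CPM on plate 1 and 145, 185 and 129 CPM on plate 2, and Tubb2a (chromosome 13, 34074274 to 34078007, minus strand) had 128, 126 and 129 CPM and 131, 142 and 132 CPM. Their values overlapped, and the log2 ratio of Tubb2b to Tubb2a was 0.23 ± 0.17 (SD, n = 6, above 0 in 5 of 6, range -0.02 to 0.41, exact permutation p = 0.0625). The division of reads between them is uncertain, since 50.6% of the 31-base words in the last 500 bases of the Tubb2a transcript also occur in transcripts of other genes, Tubb2b foremost, and the counts of both were not whole numbers. Tubb3 (chromosome 8, 123411424 to 123422015, plus strand), whose product is the class III β-tubulin used to stain neurons, had 45.3, 49.2 and 45.3 CPM on plate 1 and 45.0, 42.3 and 37.2 CPM on plate 2. It lay below Tubb2a by 1.56 ± 0.17 and above Tubb4a, which had 8.07 ± 1.45 CPM, by 2.32 ± 0.30 on the log2 scale (SD, n = 6; 6 of 6 libraries each, adjusted p = 0.0362 from the same exact permutation test). The widely expressed Tubb5 had 1547 CPM, which gave a log2 ratio of Tubb3 to Tubb5 of -5.09 ± 0.31, below 0 in 6 of 6 libraries (SD, n = 6, exact permutation p = 0.03125, adjusted p = 0.0365 over the 14 pairs with a relative). Leaving aside Eno2 with Eno1, a pair whose order is unsettled, 6 of these pairs passed with the neuronal gene higher and 5 with it lower. The 6 are not independent, since Elavl1 and Map4 each serve as the relative in several of them.

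The genes for microtubule-associated proteins were led by Map1b, which encodes a protein of growing axons. Map1b (chromosome 13 of GRCm38, 99421446 to 99516540, minus strand) had 445, 518 and 452 CPM on plate 1 and 402, 389 and 419 CPM on plate 2, so that all plate 2 libraries lay below those of plate 1. Map2, the dendritic member, followed with 241 ± 21.5 CPM, Mapt, which encodes the axonal protein tau, with 184 ± 16.7 CPM and Map1a, a protein of mature neurons, with 38.2 ± 4.36 CPM (each SD, n = 6). Map1b made up 48.5% of the counts of these 4 genes and was above Map2 by 0.85 ± 0.27 on the log2 scale (6 of 6 libraries, adjusted p = 0.0362, exact permutation test). Map2 was above Mapt by 0.39 ± 0.24, again in 6 of 6 libraries. Both exceeded Map4, the relative of dividing cells (58.0 CPM), by 2.04 ± 0.08 and 1.65 ± 0.30 (adjusted p = 0.0365 over 14 pairs, exact permutation test). Annotated genes on the opposite strand reached 98.1 CPM at Map1a, 30.5 CPM at Ina and 8.26 CPM at Celf3.

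Dcx, which encodes doublecortin of migrating young neurons, was present at 83.1, 94.4 and 73.7 CPM on plate 1 and 86.0, 62.5 and 96.6 CPM on plate 2. Its relative Dclk1 had 67.2 ± 5.77 CPM (SD, n = 6), and the pair was not separated (log2 ratio 0.28 ± 0.21, SD, n = 6, range -0.01 to 0.58, exact permutation p = 0.0625). All 4 stathmin genes, whose products bind free tubulin, were found. Stmn1, the member common in dividing cells, had 656, 545 and 683 CPM on plate 1 and 747, 819 and 674 CPM on plate 2. The neuronal members Stmn3 and Stmn2 had 422 ± 82.3 CPM and 171 ± 28.8 CPM, while Stmn4 had only 5.12 ± 0.946 CPM (each SD, n = 6). Stmn1 exceeded Stmn3 by 0.71 ± 0.14 and Stmn3 exceeded Stmn2 by 1.30 ± 0.14 on the log2 scale, in 6 of 6 libraries each, and Stmn4 lay 4.81 ± 0.45 below Stmn2 (adjusted p = 0.0362 for each, exact permutation test).

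The genes for growth-cone membrane proteins were led by Basp1. Basp1, an abundant membrane protein of growing axons, had 697, 691 and 675 CPM on plate 1 and 727, 400.2 and 655 CPM on plate 2, so that the library with the middle total was far below the other 5. Its mean was 641 ± 120 CPM (SD, n = 6), or 689 CPM without that library. Gap43, its functional relative and a classical marker of axon growth, had 177 ± 19.7 CPM (SD, n = 6) and was below Basp1 by 1.83 ± 0.21 on the log2 scale in 6 of 6 libraries (adjusted p = 0.0362, exact permutation test). The collapsin response mediators, which pass guidance signals to tubulin, were led by Dpysl2 with 122 ± 42.3 CPM, followed by Dpysl3 with 89.3 ± 24.8 CPM and Crmp1 with 65.4 ± 10.9 CPM (each SD, n = 6). Dpysl2 had 110, 108 and 88.7 CPM on plate 1 and 154, 79.6 and 190 CPM on plate 2, with the lowest and the highest value both on plate 2. It exceeded Crmp1 by 0.83 ± 0.42 in 6 of 6 libraries, whereas Dpysl3 and Crmp1 were not separated (log2 ratio 0.40 ± 0.53, range -0.65 to 0.79, exact permutation p = 0.156). Outside the set, Dpysl4 of the same family had no more than 5 counts, and Dpysl5, picked after its values were seen, had 17.8 CPM, from 14.3 to 20.3 CPM.

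Both axonal kinesins of the set were expressed well below a broadly expressed relative. Kif5c, a motor of axonal transport, had 40.5 ± 3.87 CPM and Kif1a, which carries synaptic and dense-core vesicle precursors, had 36.5 ± 7.90 CPM (each SD, n = 6), with no separation between them (log2 ratio 0.17 ± 0.23, range -0.13 to 0.48, exact permutation p = 0.156). Kif5b had 306 CPM and Kif1b 109 CPM. The log2 ratio of Kif5c to Kif5b was -2.88 ± 0.20 and that of Kif1a to Kif1b was -1.56 ± 0.18, each below 0 in 6 of 6 libraries (SD, n = 6, adjusted p = 0.0365 over 14 pairs, exact permutation test). Kif5a, a neuronal paralogue outside the set that was picked after its values were seen, had 81.9 CPM, from 67.1 to 108 CPM. Uchl1, which encodes the ubiquitin hydrolase PGP9.5 used to mark nerves and endocrine cells, had 183 ± 18.6 CPM (SD, n = 6) and exceeded Uchl3 by 1.03 ± 0.30, although 56.4% of the words in the end of the Uchl3 transcript also occur in other genes. Eno2, the gene of neuron-specific enolase, had 55.9 ± 8.67 CPM (SD, n = 6). It lay above Eno1 (18.1 CPM) by 1.59 ± 0.26, but this ratio cannot be read as an order of the enolases, since 84.3% of the words in the end of the Eno1 transcript are shared with other genes and the copy Eno1b was given 204 CPM. Sncb, encoding β-synuclein, had the smallest relative spread of the set, with 80.7 ± 3.03 CPM (SD, n = 6) and values between 77.2 and 84.7 CPM. Sncg had 2, 0 and 0 counts on plate 1 and 0, 1 and 3 counts on plate 2, and was not detectable above the limit that a count of 0 allows.

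**Figure D2:**
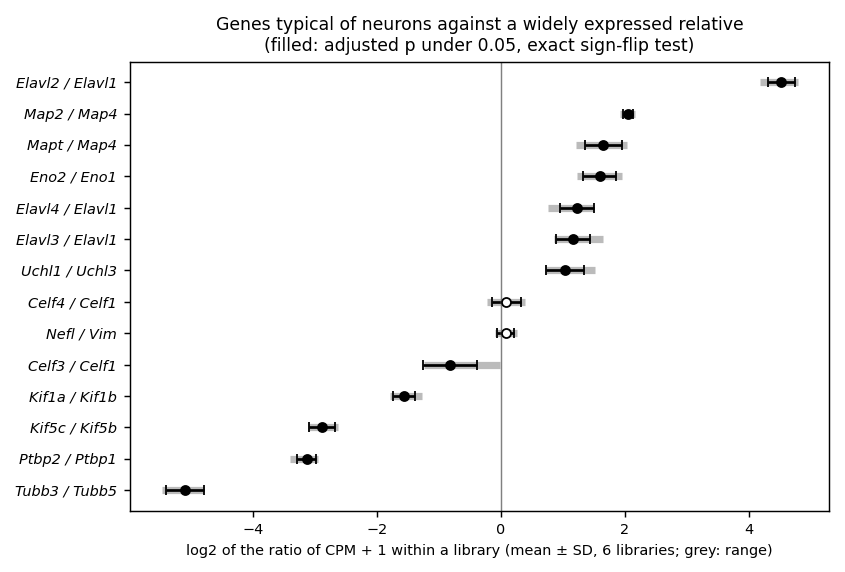
Log2 ratio of CPM + 1 within a library between a gene typical of neurons and a widely expressed relative, with the mean and SD over 6 libraries and the range in grey. Filled points passed an adjusted p of 0.05 by the exact sign-flip test. Elavl2 over Elavl1 is highest at 4.52 and Tubb3 over Tubb5 lowest at -5.09, and Eno1 shares transcript-end sequence with Eno1b.

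The neuronal ELAV proteins, which bind AU-rich mRNA, gave the highest of the RNA-binding genes. Elavl2 (ENSMUSG00000008489, chromosome 4 of GRCm38, 91250763 to 91400785, minus strand) had 857, 791 and 838 CPM on plate 1 and 995, 762 and 895 CPM on plate 2, or 856 ± 82.9 CPM (SD, n = 6). It held 83.5% of the counts of the 3 neuronal ELAV genes and stood at rank 125 of the protein-coding genes. Elavl4 with 86.3 ± 7.64 CPM and Elavl3 with 82.2 ± 8.21 CPM (each SD, n = 6) were not separated from each other (log2 ratio 0.07 ± 0.24, above 0 in 3 of 6 libraries, range -0.14 to 0.42, exact permutation p = 0.531). The ubiquitous Elavl1 had 36.7 CPM, so that each neuronal member exceeded it in 6 of 6 libraries, by 4.52 ± 0.22 for Elavl2, 1.23 ± 0.27 for Elavl4 and 1.16 ± 0.28 for Elavl3 on the log2 scale (SD, n = 6, adjusted p = 0.0365, exact permutation test).

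The splicing regulators were all lower than Elavl2, and the CELF pair changed order between libraries. Celf4 had 189, 175 and 201 CPM on plate 1 and 203, 124 and 218 CPM on plate 2, and Celf3 had 86.4, 86.8 and 84.3 CPM and 98.9, 145 and 89.6 CPM. The order of this pair turned in the library with the middle total, which had the lowest Celf4 and the highest Celf3 (log2 ratio 0.91 ± 0.56, range -0.22 to 1.27, exact permutation p = 0.0625). Against the broadly expressed Celf1 (174 CPM), Celf3 was lower in 6 of 6 libraries, with a log2 ratio of -0.82 ± 0.43 that reached -0.01 in the middle library of plate 2 (SD, n = 6, adjusted p = 0.0365, exact permutation test) and Celf4 was not separated (log2 ratio 0.08 ± 0.23, range -0.23 to 0.40, exact permutation p = 0.406). Nova1 had 46.1 ± 9.93 CPM and Nova2 15.0 ± 1.77 CPM (each SD, n = 6), with Nova1 higher by 1.53 ± 0.28 in 6 of 6 libraries. Of the Rbfox genes, the widely expressed Rbfox2 had 35.2 ± 5.69 CPM and Rbfox1, of neurons, heart and muscle, 16.7 ± 1.84 CPM (each SD, n = 6), with Rbfox2 higher by 1.03 ± 0.30 in 6 of 6 libraries. Rbfox3 had 3, 6 and 9 counts on plate 1 and 9, 9 and 20 on plate 2, a mean of 0.328 ± 0.144 CPM (SD, n = 6), and in plate 1 replicate 1 its count equals the limit for a count of 0. Srrm3 and Srrm4, which promote the inclusion of neuronal microexons, had 33.6 ± 6.17 CPM and 8.59 ± 1.03 CPM (each SD, n = 6), and Srrm3 was higher by 1.84 ± 0.27 in 6 of 6 libraries. For Nova, Rbfox1 with Rbfox2, and Srrm the adjusted p was 0.0362 in each by the exact permutation test. Ptbp1, a repressor of neuronal exons, had 108 CPM and its neuronal counterpart Ptbp2 11.5 CPM, with a log2 ratio of Ptbp2 to Ptbp1 of -3.13 ± 0.16, below 0 in 6 of 6 libraries (SD, n = 6, adjusted p = 0.0365, exact permutation test).

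Rest, the repressor of neuronal genes, was the lowest of the 41 genes that reached 1 CPM throughout. Rest (chromosome 5 of GRCm38, 77265491 to 77286432, plus strand) had 2.50, 2.25 and 2.34 CPM on plate 1 and 2.31, 1.39 and 3.15 CPM on plate 2, which rests on 43 to 115 counts, and both extremes were on plate 2. This is rank 11037 of the protein-coding genes, at percentile 2.99 of those that reached 1 CPM throughout. Its partners were present at higher levels. All 11 genes listed for its complexes had at least 1 CPM in each library, with a median of 41.5 CPM, from the histone deacetylase genes Hdac1 at 172 CPM and Hdac2 at 147 CPM to the methyltransferase gene Ehmt2 at 20.5 CPM and, lowest, the phosphatase gene Ctdsp1. Levels of transcripts do not show the amount or activity of the proteins.

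RefSeq promoter windows on GRCm38.p6, from 250 bases before to 50 bases after an annotated start, were available for 29 of the 43 genes as 48 windows. They were searched on both strands for the parts of the RE1 element that REST binds, spelled CAGCACC for the left part and GGACAG for the right part, which do not overlap as letters. The joined element, the left part followed by any pair of bases and the right part, was in none of the 48 windows and in 0.0365% of all 32851 windows. The left part was in 12.5% of the members' windows and 7.14% of all, and the right part in 18.8% and 22.2%. The left part was found for Kif1a, Kif5c, Map1b, Tubb2a and Tubb3, and the right part for Celf3, Crmp1, Elavl2, Ina, Kif1a, Map2, Tubb2a and Tubb3. Both parts were in a window of Kif1a, Tubb2a and Tubb3, or 6.25% of the members' windows against 1.73% of all. In each of these windows the parts lay on the same strand but with the right part first, the reverse of their order in the joined element. The median share of G and C was 59.8% in the members' windows and 52.7% in all, and its part in these shares was not tested. A match of so few letters is a description and not a binding site, and the absence of the joined letters holds only for these windows. Windows of Tubb2a (chr13:34077959-34078258, minus strand), which holds both parts, of Map1b (chr13:99516553-99516852, minus strand), an abundant gene with the left part, and of Ina (chr19:47014431-47014730, plus strand), a filament gene with the right part, are shown 5′ to 3′ with the matched letters in capitals, read on either strand.
Tubb2a: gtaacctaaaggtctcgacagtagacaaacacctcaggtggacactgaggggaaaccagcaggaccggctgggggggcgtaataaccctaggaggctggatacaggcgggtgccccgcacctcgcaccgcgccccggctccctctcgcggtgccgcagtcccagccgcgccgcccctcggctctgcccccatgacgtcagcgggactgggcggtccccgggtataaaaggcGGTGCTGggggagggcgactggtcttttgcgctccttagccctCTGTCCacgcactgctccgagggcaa
Map1b: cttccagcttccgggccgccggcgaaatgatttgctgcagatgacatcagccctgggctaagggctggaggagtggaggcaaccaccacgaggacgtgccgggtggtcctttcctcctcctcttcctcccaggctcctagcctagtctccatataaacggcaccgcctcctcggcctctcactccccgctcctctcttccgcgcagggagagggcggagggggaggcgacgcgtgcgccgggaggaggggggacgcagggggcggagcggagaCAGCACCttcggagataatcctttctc
Ina: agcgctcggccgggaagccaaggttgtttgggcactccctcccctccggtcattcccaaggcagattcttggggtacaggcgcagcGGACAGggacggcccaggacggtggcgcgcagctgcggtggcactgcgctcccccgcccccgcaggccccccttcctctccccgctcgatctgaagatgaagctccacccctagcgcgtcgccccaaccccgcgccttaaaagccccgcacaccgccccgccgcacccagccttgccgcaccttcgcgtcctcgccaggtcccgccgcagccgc

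Other genes of the neuronal surface and of transmission were read beside the set. Of 10, 8 had at least 1 CPM in every library, with a median of 24.9 CPM. The adhesion molecule Ncam1 was highest with 429 CPM and the synaptic calcium sensor Syt1 next with 173 CPM. The lowest were Gad1, for an enzyme of GABA synthesis, with 0.411 CPM and Thy1, a surface glycoprotein of neurons, with 0.350 CPM. Gad2, for the other such enzyme and picked after its values were seen, had 36.7 CPM, from 25.8 to 46.3 CPM. Of 37 relatives of the set, 34 had at least 1 CPM in every library, led by the α-tubulin genes Tuba1b (3682 CPM) and Tuba1a (2156 CPM), and Tubb1, a platelet isotype, had no count.

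The relative spread between libraries was small for most of the set. The coefficient of variation of CPM over the 6 libraries had a median of 12% for the 41 genes at 1 CPM and 19.5% for the 11292 protein-coding genes at that level, a description in which depth also takes part. The levels differed too, with a median of 82.2 CPM for the 43 genes and 24.0 CPM for those protein-coding genes, and their part was not tested. The coefficient was lowest for Sncb (3.75%), Nefm (3.99%) and Tubb2a (4.25%) and highest for Prph (35.2%), Dpysl2 (34.7%) and Dpysl3 (27.8%). The middle library of plate 2 held the lowest value for 15 of the 41 genes and the highest for 10, while the lowest and highest libraries of that plate held the highest value for 12 and 11. Measured as the distance to the nearest library over the range of all 6, 1 library lay apart by Dixon's criterion for 4 of 41 genes, beside 6.87% of protein-coding genes, and for all 4 (Basp1, Celf3, Eno2 and Tubb2a) it was this library, beside 5.2%. Against the mean of the other plate 2 libraries, its log2 ratio of CPM + 1 was -1.26 for Dpysl3, -1.10 for Dpysl2, -0.79 for Basp1 and -0.75 for Celf4, and 0.61 for Celf3 and 0.58 for Prph. More than 2-fold lower were thus 2 of the 41 genes, beside 6.78% of protein-coding genes. Across the 41 genes this ratio moved with the share of G and C in the final 200 bases of the transcript (Spearman's rho 0.41, Pearson's r 0.34), with genes of a single library as points, which are not independent. Dpysl3, with 55% GC, lay away from that relation, and the part of base composition in the differences was not tested.

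**Figure D3:**
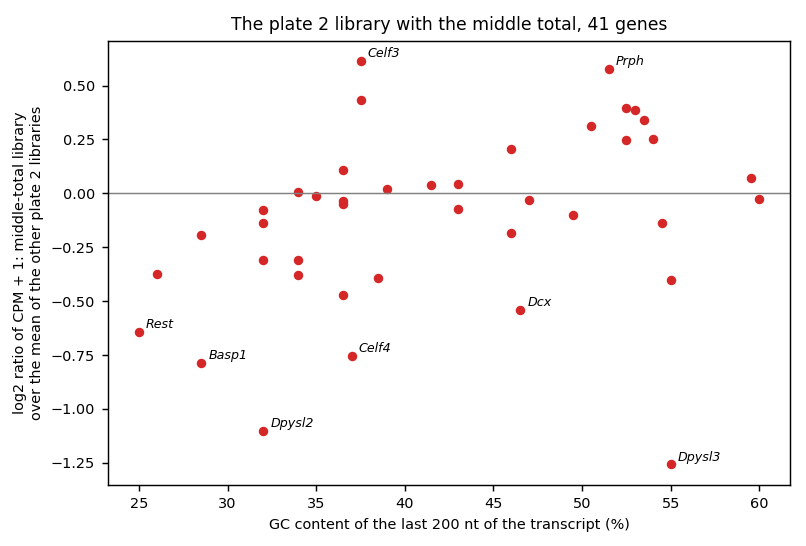
Log2 ratio of CPM + 1 of the middle library of plate 2 over the mean of the other plate 2 libraries, against the percentage of G and C in the final 200 bases of the transcript, for the 41 genes that reached 1 CPM throughout. Each point is a gene, and genes beyond 0.5 in either direction are named. Dpysl3 and Dpysl2 lie lowest, at -1.26 and -1.10.

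Between the plates, and thus between passages 23 and 27, none of the 41 genes that could be tested passed the threshold. edgeR's quasi-likelihood test with TMM scaling gave 0 of 41 with an adjusted p under 0.05, beside 0.185% of 15669 tested genes, and limma-voom also gave 0, beside 0.0638%. DESeq2 gave 4 (Map1b, Mapt, Nova1 and Stmn4), all lower on plate 2, beside 3.73%, and edgeR without a filter on low counts gave 2 (Map1b and Nova1), beside 2.02%. At an unadjusted p under 0.05 in edgeR, 11 of the 41 passed, beside 16.1% of tested genes. Of these, 10 were lower on plate 2 (Map1b, Mapt, Nova1, Stmn4, Tubb3, Sncb, Basp1, Gap43, Elavl4 and Ina) and 1, Prph, was higher, beside 7.95% and 8.13%. The fold change was below 0 for 30 of the 41, beside 45.9% of tested genes. Rbfox3 and Sncg fell below the filter on low counts.

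The smallest p-values all belonged to genes with lower values on plate 2. With TMM scaling, Map1b had 487, 585 and 485 CPM on plate 1 and 361, 361 and 382 CPM on plate 2, without overlap, and a log2 fold change of -0.50 (standard error 0.12, edgeR adjusted p = 0.118). Mapt followed with -0.44 (standard error 0.11, edgeR adjusted p = 0.124), Nova1 with -0.68 (0.17, adjusted p = 0.130), Stmn4 with -0.72 (0.19, adjusted p = 0.142) and Tubb3 with -0.44 (0.13, adjusted p = 0.162). On the same scale the plates did not overlap for 12 genes lower on plate 2 and 2 higher, Prph and Crmp1, beside 12% and 12.8% of all tested genes. The 12 were the 5 named, Basp1, Gap43, Ina, Nefl, Nefm, Sncb and Tubb2a. The median log2 fold change was -0.23 for the 41 genes and 0.03 for all tested genes.

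The direction of some of these differences depended on the scale. Bc1, a noncoding RNA of neurons, took 9.74% to 12% of the counts on plate 1 and 3.44% to 4.77% on plate 2, and its part in the differences was not tested. With total counts as the only scaling, the median of all tested genes moved to 0.30 and that of the 41 genes to 0.05, 19 of the 41 fold changes were below 0 beside 19.5% of tested genes, and Stmn2 and Crmp1 were called higher on plate 2 (2 of 41, beside 9.46%). In plain CPM the plates did not overlap for 10 genes higher on plate 2 and for 3 lower, Map1b, Stmn4 and Tubb3, beside 35.2% and 4% of tested genes. The 10 were Celf3, Crmp1, Eno2, Kif5c, Map2, Prph, Rbfox2, Stmn2, Stmn3 and Tubb2a. Tubb2a thus turned, since it was lower without overlap with TMM scaling. Its log2 fold change was -0.19 with TMM and 0.08 with total counts only, and that of Nefm was -0.21 and 0.06. The 5 genes with the smallest p kept a negative fold change under both scalings, from -0.46 for Stmn4 to -0.17 for Mapt and Tubb3 with total counts only. The count of calls also turned on 1 library. With the middle library of plate 2 left out, 10 of 42 genes passed in edgeR, beside 12% of all tested genes. Of these, Basp1, Map1b, Mapt, Nova1, Sncb, Stmn4, Tubb2b, Tubb3 and Uchl1 were lower on plate 2 and Dpysl2 was higher, with adjusted p-values of 0.0046 for Map1b, 0.00997 for Mapt, 0.0135 for Nova1, 0.0141 for Stmn4 and 0.0155 for Tubb3. Each other omission gave 0 members, beside 0.0122% without plate 1 replicate 2, 0.0368% without plate 1 replicate 3, 0.0566% without the highest library of plate 2 and 0% without either of the others.

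**Figure D4:**
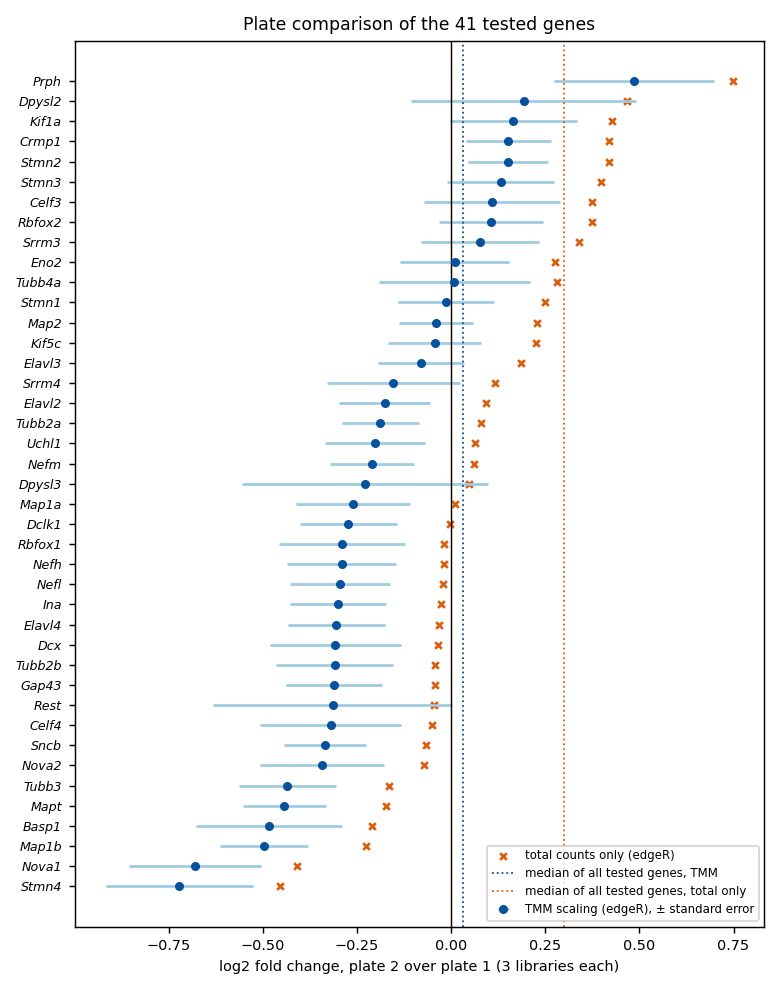
Log2 fold change of plate 2 over plate 1 for the 41 tested genes, with TMM scaling (circles, ± standard error from edgeR) and with total counts only (crosses), 3 libraries a plate. Dotted lines are the medians of all 15669 tested genes, 0.03 and 0.30. Most circles lie below 0 and no gene passed an adjusted p of 0.05 with TMM scaling.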

How the data were processed

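GLUTag RNA was converted to 3′ mRNA libraries with a kit that keeps the strand. According to the submitters' processing notes, reads were trimmed with Trim Galore 0.6.4 and assigned with Salmon 1.5.1 on GRCm38. The methods add that no length correction was applied and that Tximeta summed transcripts per gene. What the authors deposited is a table of expected counts, estimated per gene and not normalized, and 13 of the 43 members have values that are not whole.

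Counts were divided by the column total to give CPM, and rounded only for edgeR 4.0.16, DESeq2 1.42.0 and limma 3.58.1 (R 4.3.3). The 3 columns of plate 1 matched replicates 1, 2 and 3, while those of plate 2 give the passage, the plate and a number that restarts at 1, which the sample titles do not use. Symbols and positions were taken from the GENCODE M21 annotation, older than the authors' release but of the same build, in which 54107 identifiers matched. Pairs of genes were compared by the log2 ratio of their CPM + 1 in each library, with an exact permutation test that flips signs over 6 libraries, two-sided, and Benjamini-Hochberg adjustment. This test treats the 6 libraries as independent. Plates were compared by the robust quasi-likelihood test of edgeR with TMM and filterByExpr at an adjusted p of 0.05 over all tested genes. This step was also run on simulated data, and how far those runs hold for these libraries was not tested. The limit on recovered genes was first set over all genes, was missed, and was then applied to genes of at least 1 CPM. Alternatives were other tools, scalings, filters, pseudocounts of 0.1 and 5 CPM, and the omission of each library.

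Shared words were counted as 31-base words in the last 500 bases of 1 principal transcript per gene. The members and lists were chosen with earlier results of these data known. All members are given, from other lists mainly the highest and lowest 2 genes and those compared with a member, and between plates the 5 smallest p-values. Of the marker lists, 1 gene is not reported here. Python 3.11.15 with numpy 2.4.6 was used.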

Additional observations from a re-analysis of the deposited data

Results flagged for a closer look

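For 4 of the 41 genes that averaged 10 counts or more, 1 library lay apart, judged by its gap to the nearest library over the whole range of 6. Chance gives this in about 1 in 20 groups, and the share was 6.87% over all protein-coding genes at that level. Each time it was the middle library of plate 2, which lay apart for 5.2% of protein-coding genes. Basp1 was low in it, at 400.2 CPM against 655 to 727 CPM (gap over range 0.778), and averaged 689 CPM in the other 5. Celf3 was high, at 145 CPM against 84.3 to 98.9 CPM (0.759), and averaged 89.2 CPM in the other 5. Eno2 was high, at 72.8 CPM against 48.7 to 56.0 CPM (0.695). Tubb2a was high, at 142 CPM against 126 to 132 CPM (0.642), a gap of few CPM for a gene that shares transcript-end sequence with Tubb2b.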

How the results depend on the processing

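The 58 comparisons of genes within a library kept their direction and their side of the threshold under pseudocounts of 0.1 and 5 CPM, TMM scaling and DESeq2 size factors. This is fixed by the arithmetic, since a scaling acts on both genes alike and a pseudocount leaves the sign of a ratio, and says nothing about stability. With 5 libraries the smallest p is 0.0625, so the omissions of a library give values and no test. Levels moved by less than 1 SD under both scalings for all 43 genes, which says little, since both scalings were brought back to the mean total of the 6 libraries. They moved by more for Nefm, Tubb2a and Sncb when the total was taken without mitochondrial genes.

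The count of genes that differ between plates was 29 in edgeR, 584 in DESeq2, 10 in limma-voom, 545 without a filter and 1482 with total counts only, and from 0 to 1911 over the 6 omissions of a library. With TMM, 2 genes were called higher and 27 lower (93.1% lower), and with total counts only 1411 higher and 71 lower (4.79% lower), a scaling that moved the median fold change of all genes by 0.27 on the log2 scale. Among the members it was 0 in edgeR, 4 in DESeq2, 2 without a filter (Map1b and Nova1), 2 with total counts only (Stmn2 and Crmp1) and from 0 to 10 over the omissions, the 10 when the middle library of plate 2 was left out. Fewer libraries enter each omission, and otherwise the cause was not tested. No paired analysis was run. The sample titles number the libraries from 1 to 6 across both plates, and the column numbers, which restart on plate 2, could not be tied to them. The labels do not say that equal column numbers on the plates share a batch or a day. Depth limits Sncg and Rbfox3, which lie near a count of 0.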
